A study of Mus musculus with 2 samples.

Results

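The cells described here were 230 of the 748 cells that passed a quality filter in the WTg library, and they were selected on the readout itself. Each barcode with at least 500 genes, at least 5000 unique molecular identifiers (UMIs, counted transcripts) and at most 20% of UMIs from mitochondrial genes received a score. The score was the mean, over Gm5771, Sycn, Dmbt1, Pnliprp2, Serpini2 and Tdh, of log(1 + UMIs per 10000 UMIs of the cell). The 230 cells with the highest score were set against the remaining 518 WTg cells of the same filter. The 6 genes, and every other gene in these cells, therefore belong to the contrast that chose the members, and all values of that contrast are a description without a test.

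The study compared pancreatic tumours of transgenic mice by 10x Genomics single-cell RNA sequencing, with 1 library per genotype. EL1 mice (FVB/N-EL1-Luc/EL1-TAg) carry SV40 large T antigen and firefly luciferase, each under the rodent elastase I promoter, which is active in acinar cells. WTg mice are double transgenic, from a cross of EL1 with C57BL/6-derived mice that carry Mettl3 under the broadly active chimeric CAG promoter, so that T antigen and luciferase are common to both libraries. Both tumours were labelled as pancreas from mice of 6 weeks, and the number and sex of the mice behind each library are not stated. Strain background differs along with the Mettl3 transgene, and genotype, animal and library cannot be told apart.

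Acinar cells of the exocrine pancreas make digestive enzymes as inactive zymogens, store them in granules and release them on demand. Their identity is held by a small set of transcription factors that includes PTF1A, RBPJL, NR5A2 and MIST1 (gene Bhlha15). The genes of the score fall into this biology in different ways. Gm5771 encodes a trypsinogen-like serine protease, Sycn encodes syncollin of the zymogen granule membrane, Pnliprp2 a pancreatic lipase-related protein and Serpini2 a pancreas-expressed serine protease inhibitor. Dmbt1 encodes a secreted scavenger receptor cysteine-rich glycoprotein of mucosal surfaces, and Tdh encodes mitochondrial threonine dehydrogenase.

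On the GRCm38 build, with positions from the GENCODE M21 annotation, all 6 are protein-coding genes. Gm5771 lies at chr6:41392356-41397230 on the plus strand, within the trypsinogen cluster that also holds Prss1, chr6:41458932-41463786. Sycn lies at chr7:28540885-28542209, Dmbt1 at chr7:131032053-131121630 and Pnliprp2 at chr19:58759719-58777534, all on the plus strand. Serpini2 lies at chr3:75242370-75270078 and Tdh at chr14:63492347-63509092, both on the minus strand. Sycn overlaps Samd4b, Dmbt1 overlaps Fgfr2 and Tdh overlaps Gm17232, each on the opposite strand, and since the use of strand in counting is not given in the sources used here, reads of these pairs may not be told apart.

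The sequences just upstream are shown because these genes were high in the same cells and because Prss1, outside the score, had a promoter close to that of Gm5771. RefSeq (GRCm38.p6) held 4 of the 6 score genes and Prss1. Each line gives the 250 bases before the gene start in RefSeq, 5′ to 3′ on the gene's strand, at chr6:41392106-41392355 for Gm5771, chr6:41458680-41458929 for Prss1, chr7:28540635-28540884 for Sycn, chr19:58759473-58759722 for Pnliprp2 and chr3:75270079-75270328, minus strand, for Serpini2. Capitals mark matches, on either strand, to the E-box CACCTG known to bind PTF1A, the RBPJ-like TTTCCC, the NR5A2-type AAGGTCA and the TATA box TATAAA.
Gm5771: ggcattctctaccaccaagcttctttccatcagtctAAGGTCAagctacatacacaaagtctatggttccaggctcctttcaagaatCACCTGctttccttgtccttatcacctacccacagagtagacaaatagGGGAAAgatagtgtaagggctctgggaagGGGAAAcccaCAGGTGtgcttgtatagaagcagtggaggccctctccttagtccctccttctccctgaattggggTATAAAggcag
Prss1: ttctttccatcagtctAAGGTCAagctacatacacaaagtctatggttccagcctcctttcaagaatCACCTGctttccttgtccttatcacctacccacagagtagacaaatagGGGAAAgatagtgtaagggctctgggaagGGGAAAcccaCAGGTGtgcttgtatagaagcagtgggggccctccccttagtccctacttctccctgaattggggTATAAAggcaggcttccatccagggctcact
Sycn: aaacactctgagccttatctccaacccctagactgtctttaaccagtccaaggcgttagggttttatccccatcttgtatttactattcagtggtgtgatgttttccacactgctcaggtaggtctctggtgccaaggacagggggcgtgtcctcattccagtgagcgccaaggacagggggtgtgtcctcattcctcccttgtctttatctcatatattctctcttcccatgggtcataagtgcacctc
Pnliprp2: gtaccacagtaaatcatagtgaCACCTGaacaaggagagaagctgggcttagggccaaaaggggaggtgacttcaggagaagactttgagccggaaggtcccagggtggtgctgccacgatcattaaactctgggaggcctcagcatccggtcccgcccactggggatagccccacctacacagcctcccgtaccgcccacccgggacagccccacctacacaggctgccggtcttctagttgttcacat
Serpini2: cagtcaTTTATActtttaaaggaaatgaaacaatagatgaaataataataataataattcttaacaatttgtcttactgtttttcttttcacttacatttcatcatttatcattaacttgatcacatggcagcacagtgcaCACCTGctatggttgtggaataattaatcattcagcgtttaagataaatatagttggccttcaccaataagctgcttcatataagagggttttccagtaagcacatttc

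The Gm5771 and Prss1 windows were identical at 226 of 230 aligned bases (98.3%), and both held the same set of matches: 2 of CACCTG, 2 of TTTCCC, 1 of AAGGTCA and 1 of TATAAA. Pnliprp2 and Serpini2 each held 1 CACCTG, Serpini2 also held a TATAAA far upstream, and the Sycn window held none of the motifs. Among 32851 RefSeq windows of the same length, 17.2% held CACCTG, 21.9% TTTCCC, 4.08% AAGGTCA and 12.4% TATAAA. No match of one motif overlapped another. These matches are letters in a window and were not measured as binding sites. The likeness of Gm5771 and Prss1 extends to the transcripts, where 72.6% of the 31-base words in the last 300 bases of Gm5771 also occurred in Prss1. The split of reads between these genes, and among the trypsinogens as a whole, is therefore uncertain.

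The score ran along a slope with no step at the limit of the group. The highest cell scored 3.097, and the last 3 members scored 1.133, 1.132 and 1.127. The first 3 cells outside scored 1.125, 1.123 and 1.123, and 64 cells lay within 0.1 of the lowest member, 27 of them members. The members' median was 1.65 against 0.449 in the remaining cells, of which 59 of 518 scored 0. The 230 cells are thus the upper end of a range. They held 11668006 UMIs with a median of 43174 per cell (5451 to 186186), and the remaining cells 20974738 with a median of 36653. The score and the UMIs per cell had a Spearman's rho of 0.277 across the 748 cells, which share a library, and 207 of the 230 members were also chosen when the score was computed after thinning every cell to 5000 UMIs.

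**Figure D1:**
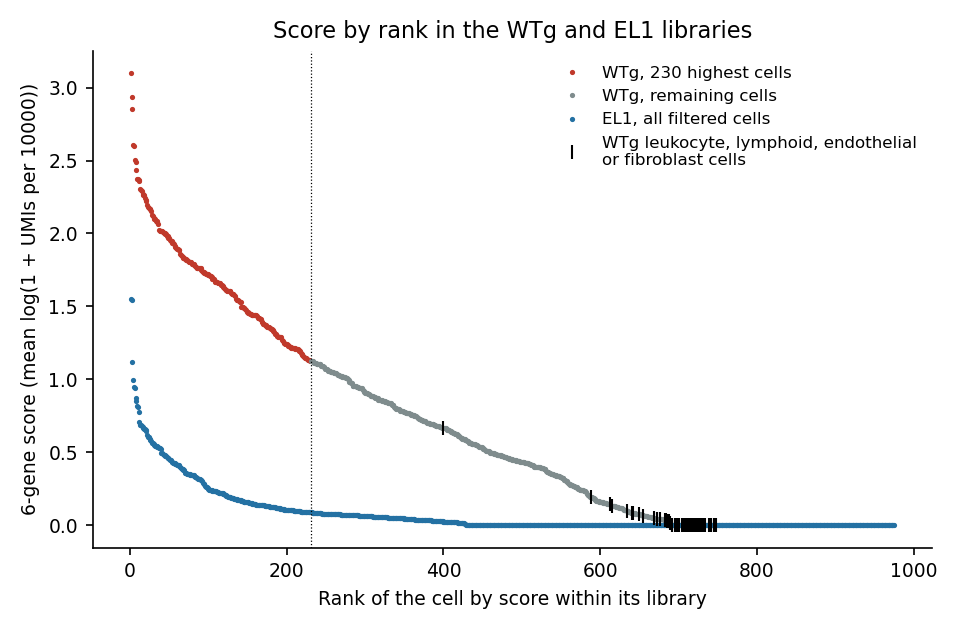
The 6-gene score (mean of log(1 + UMIs per 10000)) of each filtered cell against its rank within its library, with the 230 WTg members in red, the remaining WTg cells in grey, EL1 cells in blue and WTg cells with leukocyte, lymphoid, endothelial or fibroblast genes as black ticks. The WTg curve passes the dotted limit at rank 230 without a step, and only 2 of 975 EL1 cells reach the score of the lowest member.

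The same score was read in EL1 and in WTg leukocytes. In EL1, which the rule did not use, only 2 of 975 filtered cells (0.205%) reached the score of the lowest member, 547 cells scored 0 and the highest cell scored 1.55. In WTg, where the rule ranked all cells, 32 filtered cells carried leukocyte genes, and none of them was a member. Such a cell had at least 10 UMIs from at least 3 of 10 such genes, and at least 10 of these UMIs per 10000 UMIs of the cell. The highest leukocyte cell scored 0.669, and 21 of the 32 scored 0. The 2 libraries shared 15 barcodes in all, none of them between filtered cells.

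Gm5771 was the gene with the widest gap. The summed level in the members was 2091 CPM (UMIs of the gene per 1000000 UMIs of the group; 95% Poisson interval 2065 to 2117) against 216 CPM (210 to 222) in the remaining WTg cells and 14.5 CPM in EL1. Single members ranged from 0 to 185 UMIs per 10000 with a median of 10.1, and 1 remaining cell, at 206, exceeded them all. Over the 6 genes, the 10 richest members held 15.3% (Dmbt1) to 27.5% (Pnliprp2) of the members' UMIs, so the levels were spread over many cells but unevenly.

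Sycn, which is high in normal acinar cells, was at 1595 CPM in the members, 342 CPM in the remaining cells and 10.7 CPM in EL1. Its median was 12.6 UMIs per 10000 in members (0 to 95.1) against 0.577 in the remaining cells (0 to 72.6), and the ranges overlapped almost throughout. Dmbt1 reached 1053 CPM in the members, 181 CPM in the remaining cells and 125 CPM in EL1. It was the score gene that EL1 cells held most, with single EL1 cells up to 74.9 UMIs per 10000 and members up to 72.0. The level of Dmbt1 in EL1 lay in 138 of 975 cells.

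The other 3 genes were counted less often. Pnliprp2 was at 437 CPM in the members, 108 CPM in the remaining cells and 22.1 CPM in EL1. Serpini2 had the smallest gap within WTg, at 299.7 CPM (289.9 to 309.8) against 142 CPM (137 to 147), a log2 ratio of 1.08 (1.01 to 1.15). In EL1 Serpini2 was near absent, at 1.46 CPM from 55 UMIs in 20 cells. Tdh was at 125 CPM in the members, 31.8 CPM in the remaining cells and 14.9 CPM in EL1, and 56 members held no Tdh UMI.

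**Figure D2:**
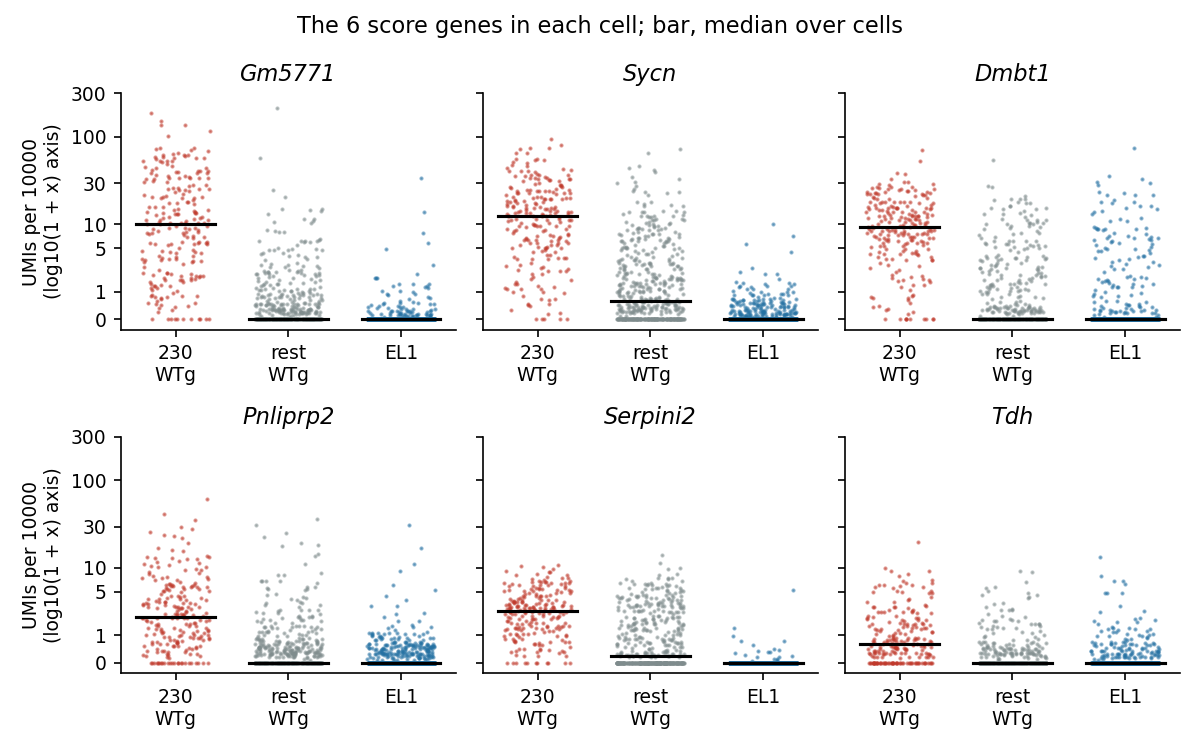
UMIs per 10000 of each score gene in each cell (log10(1 + x) axis) for the 230 members, the remaining 518 WTg cells and 975 EL1 cells, with the median over cells as a bar. Member medians are above the remaining cells in all 6 panels, which the choice of cells fixes, and the ranges overlap for every gene.

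Shares of cells with a UMI were compared after each cell was thinned to 5000 UMIs. Sycn was then found in 87.4% of members (exact binomial interval 82.4 to 91.4), 41.3% of remaining WTg cells, 40 of 975 EL1 cells and 2 of 32 WTg leukocyte cells. Gm5771 was found in 83.0%, 21.4% and 2.77% of the same groups of cells and in 1 leukocyte cell. Serpini2 was found in 63.5%, 29.2% and 0.308%, and in 0 of 32 leukocyte cells. Reading a count of 0 as at most 3 allows a share of up to 9.38%, and the exact binomial limit is 10.9%. Without thinning, the shares in members were 97.8%, 95.2% and 95.2%. Leukocytes should lack these genes, so the leukocyte levels, 4.16 CPM for Sycn and 5.19 CPM for Gm5771, give the background from free RNA at a median of 30631 UMIs per cell. The remaining WTg cells stood well above that background for all 6 genes. All intervals and floors here cover counting error only.

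Within the members the 6 genes did not move as 1 unit. All 6 had a UMI in 135 members (58.7%), 5 of them in 76, 4 in 16 and 3 in 3. In the remaining cells all 6 were present in 25 of 518, and in EL1 in 1 of 975. The gene with the largest log value was Gm5771 in 84 members, Sycn in 77, Dmbt1 in 56, Pnliprp2 in 9, Serpini2 in 3 and Tdh in 1. Across all 748 WTg cells the 15 pairs of score genes had Spearman's rho between 0.20 and 0.51, while among the 230 members rho lay between -0.30 (Sycn and Pnliprp2) and 0.20 (Sycn and Tdh). Selection on the mean of these genes can by itself lower rho among the selected cells, so the second range is given only as a description. Of the 230 cells highest for a single gene, the members made up 171 for Gm5771, 168 for Dmbt1, 153 for Sycn, 149 for Pnliprp2, 140 for Tdh and 121 for Serpini2.

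The label of acinar-type cells was checked against the wider acinar genes. Digestive enzyme genes outside the score took 26.0% of the members' UMIs and 19.7% of the remaining cells' UMIs. Every member held at least 897 digestive enzyme UMIs per 10000, with a median of 2555, whereas the remaining cells ran from 2.62 to 7687 with a median of 1725. The 23 acinar markers with at least 20 UMIs took 18.6% of the members' UMIs and 15.6% of the remaining cells', with a median log2 ratio of 0.13, 2 genes at least 2-fold higher and 2 lower. The acinar name was kept for these levels, which the remaining cells largely share. Not every acinar gene was high in them. Pnlip, the main triglyceride lipase, was at 13.1 CPM in the members against 30.4 CPM, and Ctrl, a chymotrypsin-like protease, at 53.9 CPM against 302 CPM. Both levels in the remaining cells were uneven. With cells of other types set aside, 10 cells held 54.0% of the Pnlip UMIs and 62.1% of the Ctrl UMIs there, and Pnlip had a UMI in 32.2% of members and 27.5% of those cells. The log2 ratio of Ctrl was -2.48, and it was -0.35 when the next group of cells by rank was added to the members and -4.23 with only the upper members.

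Of 9097 genes with at least 200 UMIs in the 2 groups of WTg cells, 27 (0.297%) were at least 2-fold higher in the members, the 6 score genes among them, and 505 (5.55%) were at least 2-fold lower. Among the 13689 genes with at least 20 UMIs, the floor used for gene lists, the shares were 0.621% higher and 14.5% lower. The median log2 ratio of all genes was -0.26 at the higher floor and -0.30 at the lower one, so list medians are read against the latter. Scaling to UMIs outside the digestive genes moved the median of all genes from -0.26 to -0.13.

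Trypsinogens, the zymogens of trypsin, were the higher group among the enzyme lists. Together they took 10.8% of UMIs in the members and 6.32% in the remaining cells, and the median log2 ratio over 10 genes was 1.07. Of the 10, 5 were at least 2-fold higher and 0 at least 2-fold lower. Prss1 was at 9977 CPM against 2677 CPM (log2 ratio 1.90, 1.88 to 1.91), Try4 at 1644 against 559 CPM, Prss3 at 13497 against 4977 CPM, Gm10334 at 18998 against 7624 CPM and Try10 at 4797 against 1957 CPM. The most abundant members of the family were closer, with Try5 at 32899 against 25778 CPM and Prss2 at 18465 against 13623 CPM. The trypsinogen 2210010C04Rik went the other way, at 1249 against 1865 CPM. Gm10334 and Prss3 share 44.4% and 42.2% of the end words of Gm5771, Try4 13.7%, Try10 and Prss2 7.41% each, Try5 1.85% and 2210010C04Rik 0. The part of shared reads in these values was not tested.

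The kallikrein genes stood beside the trypsinogens. Klk1, tissue kallikrein, was at 1357 CPM in the members and 191 CPM in the remaining cells (log2 ratio 2.83, 2.78 to 2.88), and had a UMI in 74.3% of members and 31.9% of remaining cells. Its paralogues Klk1b5 (27.7 against 4.86 CPM) and Klk1b4 (18.9 against 3.34 CPM) showed log2 ratios of 2.51 and 2.50. Searched by symbol after these values were seen, 9 kallikrein genes had at least 20 UMIs. Of these, 8 were at least 2-fold higher in the members and Klk8 had 0 UMIs there. Among all genes of this floor, 0.621% were at least 2-fold higher. Some of the 8 rest on few counts, such as Klk1b26 with 42 and 7 UMIs. Klk1b8, with 14 and 10 UMIs, had a log2 ratio of 1.33 (0.06 to 2.66). In EL1, the summed level of Klk1 over all cells was 1307 CPM, close to the members' level, but unevenly spread. Klk1 had a UMI in 32.4% of EL1 cells, with a median of 0 UMIs per 10000 and a highest cell of 467. The members had a median of 3.51 and a highest cell of 197. After each cell was thinned to 5000 UMIs, Klk1 was found in 13.9% of EL1 cells and 57.0% of members. Klk1b5 shares 21.9% of 31-base words with Klk1, so part of its reads may be shared. Of the other paralogues, only Klk1b4 was compared, and it shares 0.741%.

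Reg proteins, secreted C-type lectins made by acinar cells under stress, had a median log2 ratio of 0.88 over 6 genes, with 2 at least 2-fold higher. Reg3b was at 1152 against 361 CPM and Reg1 at 43386 against 31201 CPM. Reg2, at 55.5 against 20.5 CPM, had a log2 ratio of only 0.19 when every cell counted equally. Gal, the neuropeptide galanin, was at 808 CPM against 277 CPM and was found in 94.8% of members. Zg16, a lectin of the zymogen granule, was at 562 against 177 CPM (log2 ratio 1.67). Serpina16, a member of the serpin family, was at 18.1 against 6.96 CPM.

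The other exocrine lists showed small differences. Elastases, chymotrypsins and carboxypeptidases had a median log2 ratio of 0.36 over 10 genes, with 0 at least 2-fold higher and only Ctrl at least 2-fold lower. Ctrb1, chymotrypsinogen B, was at 34481 against 25879 CPM and Cela1 at 14696 against 10402 CPM, while Cela3b was at 2720 against 3623 CPM. Lipases, amylase and ribonuclease had a median of 0.13 over 11 genes, with Clps, the lipase cofactor colipase, at 12395 against 17894 CPM. Zymogen granule and accessory genes had a median of 0.06 over 18, where Klk1 and Zg16 were the 2 higher genes and Aqp8, with 17 and 68 UMIs, the lower one.

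Acinar transcription factors were no higher in these cells. Over 12 genes the median log2 ratio was -0.21, close to the -0.30 of all genes, and 0 genes passed a 2-fold difference either way. Ptf1a was at 23.1 against 36.0 CPM (log2 ratio -0.64, -0.84 to -0.44), with 8.23 CPM in the upper members and 39.3 CPM in the lower ones (ranks 116 to 230). Nr5a2 was at 17.6 against 24.9 CPM and Rbpjl at 122 against 141 CPM. Bhlha15, the factor of zymogen granule maturation, was the exception at 116 against 79.4 CPM, a log2 ratio of 0.54 (0.44 to 0.65).

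ER folding and unfolded protein response genes, which serve secretory protein load, had a median log2 ratio of -0.07 over 24 genes with 0 past 2-fold. Of the 24, 22 lay above the median of all genes, -0.30. The list median became 0.0639 under scaling to UMIs outside the digestive genes. Hspa5, the main ER chaperone, was at 1340 against 1365 CPM. The 19 detected genes of threonine, serine and glycine metabolism, the pathway in which Tdh acts, had a median of 0.00. Its closest partner Gcat, which takes up the product of TDH, was at 162 against 126 CPM. The Tdh gap was not shared by that pathway at 2-fold, where 0 genes were higher and 1, Amt, was lower with 8 and 29 UMIs.

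**Figure D3:**
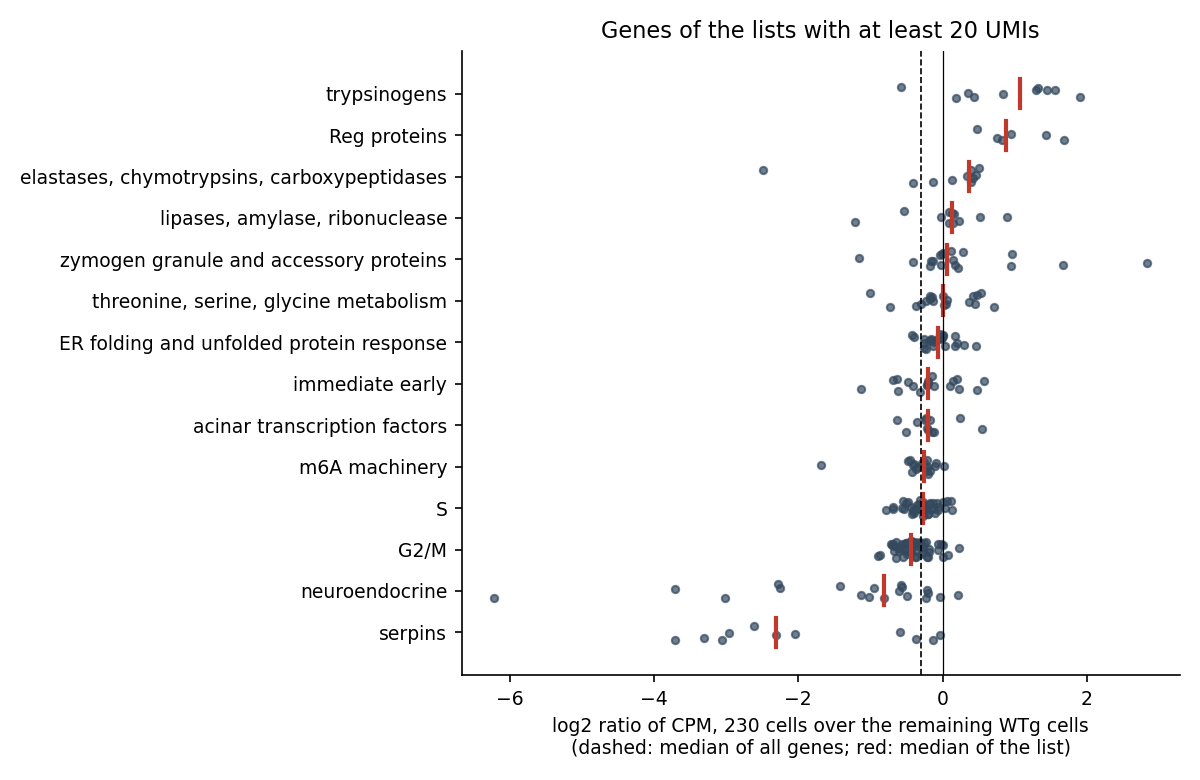
The log2 ratio of summed CPM, members over the remaining 518 WTg cells, for each gene with at least 20 UMIs in 14 gene lists, with list medians in red and the median of all genes dashed at -0.30. Trypsinogens and Reg proteins lie to the right, the other exocrine lists lie near 0, and neuroendocrine genes and serpins reach far to the left.

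Neuroendocrine genes, which mark peptide-secreting cells, were lower in the members with a median log2 ratio of -0.82 over 19 genes. Of the 19, 8 were at least 2-fold lower and 0 higher, against a background of 14.5% lower among all genes of this floor. Chga, chromogranin A, was at 1288 CPM in the members and 2612 CPM in the remaining cells (log2 ratio -1.02). Pcsk2, a prohormone convertase, was at 10.3 against 49.0 CPM, Insm1, an endocrine transcription factor, at 5.06 against 24.7 CPM and Penk, proenkephalin, at 2.66 against 21.5 CPM. The members were not free of Chga, which had a UMI in 89.1% of them.

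Other serpins were mostly lower in the members. The serpin list of 11 genes holds neither Serpini2 nor the higher Serpina16. Of these 11, 7 were at least 2-fold lower and 0 higher, with a median log2 ratio of -2.31. Among all genes with at least 20 UMIs, 14.5% were at least 2-fold lower. The paralogues Serpina1a to Serpina1e are among the 7, and reads shared between them were not examined. The alpha-1-antitrypsin gene Serpina1c was at 162 CPM in the members against 666 CPM, Serpina1a at 8.57 against 71.5 CPM and Serpina1e at 1.89 against 24.6 CPM. Serpini1, the paralogue nearest by name to Serpini2, was at 139 against 152 CPM. In the remaining cells these genes were uneven, and 10 cells held 53.2% of the Serpina1a UMIs and 48.8% of the Serpina1e UMIs when cells with leukocyte, lymphoid, endothelial or fibroblast genes were set aside.

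The lowest genes by the naming rule described the remaining cells more than the members. C1qb, Maf, Lyz2, Srgn, Laptm5, Arhgdib and Lcp1, which are expressed in macrophages or other leukocytes, had log2 ratios between -8.02 and -6.53, and Apoe, also made by macrophages, was at 26.9 against 1610 CPM. All 32 leukocyte cells, all 10 cells with endothelial or fibroblast genes and all 11 cells of a cluster led by leukocyte genes such as Ptprc lay among the remaining cells. The 12 macrophage genes summed to 102 CPM in the members and 1831 CPM in the remaining cells, and 7 of 10 endothelial and fibroblast genes had 0 UMIs in the members. Against the other 465 remaining cells, Lyz2 had a log2 ratio of 0.44, C1qb -0.31 and Laptm5 -0.97, while Maf was at -5.38, Arhgdib -2.34, Srgn -2.13, Lcp1 -1.92 and Apoe -1.83. There the lower genes numbered 190 of 8722 (2.18%) and the higher ones 26 (0.298%).

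Named after these 465 cells were taken as the comparison, the lowest genes were Aard (0.17 against 12.5 CPM), Resp18, a neuroendocrine secretory protein gene (1.03 against 14.5 CPM), Ptgds, prostaglandin D synthase (2.57 against 31.9 CPM), and 4 of the Serpina1 genes. Syt1, Tubb3, Lyve1, Uts2 and Spp1 also lay among the 20 lowest, with log2 ratios from -3.12 to -2.49. Ctrl was at 53.9 against 323 CPM. Among the 465 cells, 10 cells held 72.7% of the Ptgds UMIs, 62.0% of the Aard UMIs and 61.4% of the Spp1 UMIs, and the members held 2 Aard UMIs. Of these genes, Aard, Resp18 and Syt1 led a cluster of 33 WTg cells with 0 members, and the 4 Serpina1 genes, with Uts2, led another of 78 cells with 3. Ptgds led a cluster of 104 cells with 34 members. The trypsinogen median was then 0.97, the neuroendocrine median -0.92 and the serpin median -2.14.

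Haemoglobin genes, a mark of red blood cells, were high through a single barcode. Hbb-bs was at 43.7 against 5.01 CPM, but 904 of the 981 red blood cell UMIs of all members (92.2%) lay in 1 cell.

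S genes lay near the median of all genes, and G2/M genes somewhat below it. Over 54 G2/M genes the median log2 ratio was -0.44 and over 43 S genes -0.27, against -0.30 for all genes. In either list 0 genes passed 2-fold. Of the G2/M genes 16 lay above the median of all genes, and of the S genes 26. The G2/M median depended on the cut, at -0.90 with only the upper members and -0.15 with the next group by rank added. Mki67, the proliferation antigen, was at 118 against 174 CPM and had a UMI in 47.4% of members and 42.7% of remaining cells. The G2/M sum per member ran from 1.07 to 197 UMIs per 10000 with a median of 9.25, so dividing cells were among the members.

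Mettl3, the transgene's product and the catalytic subunit of the m6A writer, was level between the groups. It was at 66.4 CPM in the members (61.8 to 71.3) and 65.3 CPM in the remaining WTg cells (61.9 to 68.9), and at 14.9 CPM in EL1. The log2 ratio within WTg was 0.02 (-0.10 to 0.15). The gene overlaps Tox4 on the opposite strand. The transgene was made from the Mettl3 open reading frame, and these counts do not separate its reads from those of the endogenous gene. The m6A list had a median of -0.25 over 19 genes, of which 1, Igf2bp3 with 9 and 52 UMIs, was at least 2-fold lower.

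Levels along the score showed whether the members ended at a boundary in other genes. Prss1 went from 12797 CPM in the upper members to 6912 in the lower members (ranks 116 to 230) and 4304 in the next group of the same size, and Klk1 from 1744 to 937 and 461 CPM. Zg16 went from 688 to 426 and 321 CPM, and Gal from 904 to 703 and 445 CPM. Elastases, chymotrypsins and carboxypeptidases summed to between 112172 and 121051 CPM in all groups down to rank 575 and to 46785 CPM in ranks 576 to 690, where 10 leukocyte cells lay. Colipase did not follow the score, with Clps at 11856 CPM in the first group, 24000 CPM in ranks 461 to 575 and 12736 CPM in ranks 576 to 690. Chga was similar in the upper members (1211 CPM), the lower members (1371 CPM) and the next group (1271 CPM), and reached 5157 CPM in ranks 576 to 690. Mettl3 stayed between 62.5 and 73.8 CPM in the first 6 groups.

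**Figure D4:**
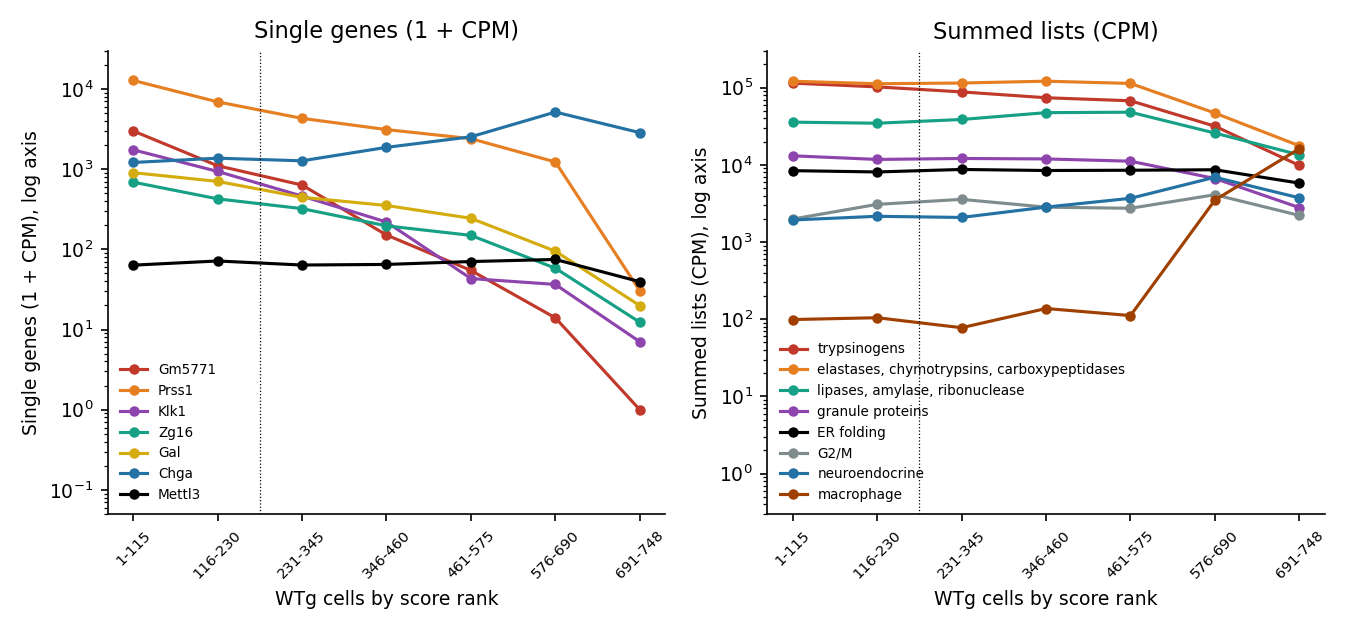
Summed CPM of single genes (left, 1 + CPM) and of gene lists (right) in WTg cells grouped by score rank, in 6 groups of equal size and a last group of 58 cells, on log axes. Prss1, Klk1, Zg16 and Gal decline across the dotted limit of the members, while elastases and related enzymes stay level to rank 575 and macrophage genes are higher in the last 2 groups.

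The genes whose pattern over the 748 WTg cells was most like the score, among 10532 genes found in at least 10% of cells, were mostly trypsinogens. Spearman's rho was 0.71 for Try4, 0.70 for Prss3, 0.69 for Try10, 0.66 for Prss1 and 0.63 for Gm10334, followed by Gal (0.61), Ctrb1 (0.60), Cela2a (0.53) and Klk1 (0.52). The same genes had rho between 0.13 (Klk1) and 0.36 (Ctrb1) with the score in 975 EL1 cells, where most scores were 0. Among the 230 members alone, Gm5771 and Prss1 had rho 0.61. The score genes went both ways with Chga, from -0.32 (Serpini2) and -0.30 (Dmbt1) to 0.35 (Gm5771). Gm5771, a gene of the score, shares 72.6% of its end words with Prss1, 44.4% with Gm10334 and 42.2% with Prss3. The part of shared reads in these rho values was not tested.

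Clustering of the 748 cells without the 6 genes gave 14 clusters, and the members lay in 11 of them. Cluster 0, led by Klk1, Klk1b5, Klk1b4 and Zg16, held 78 members among 108 cells (72.2%). Cluster 5, led by Prss1, Gal, Cst6 and Fkbp11, held 35 among 60 (58.3%). Both clusters together held 49.1% of the members and were the only ones with a majority of members. Cluster 1, led by Ptgds and 2210010C04Rik, held 34 of 104 cells, and clusters 3, 6 and 8, led by histone, replication and mitotic genes, held 22, 21 and 11. Clusters 10, 11 and 13 held 0 members. Of each member's nearest neighbours, 64.3% on average were members, against 22.9% for the remaining cells and a share of 30.7% among all cells.

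Members of different clusters were made of different genes of the score. In cluster 5 they held Gm5771 at 3483 CPM, Prss1 at 17511 CPM and Dmbt1 at 694 CPM. In cluster 1 they held Gm5771 at 721 CPM, Prss1 at 4251 CPM and Dmbt1 at 1288 CPM, along with Reg3b at 2737 CPM and Ctrl at 230.9 CPM. In cluster 0, Sycn reached 2209 CPM and Klk1 2412 CPM. Ctrl, low in the members as a whole, was at 0.958 CPM in those of cluster 0, and Cela3b ran from 1535 CPM in cluster 5 to 5653 CPM in cluster 8. The 6 genes chose the members and the other genes entered the clustering, so the values describe and do not test.

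**Figure D5:**
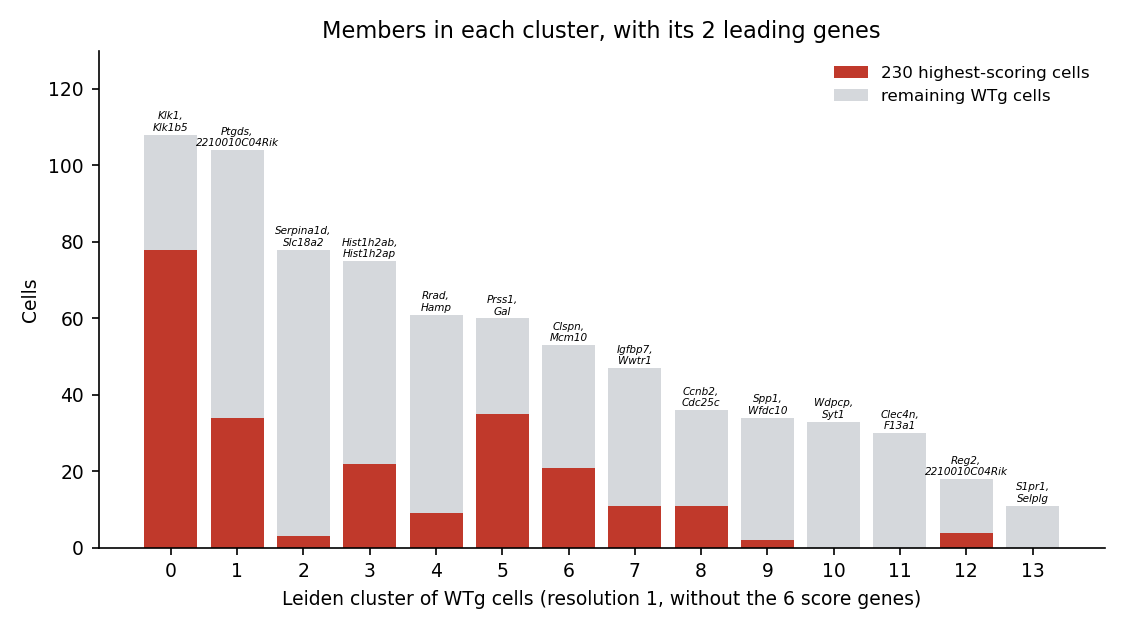
Number of WTg cells in each of 14 Leiden clusters, with members in red and the remaining cells in grey, and the 2 leading genes of each cluster above its bar. Members form most of clusters 0 and 5 and are spread in smaller numbers over others, with 0 in clusters 10, 11 and 13.

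The same score in EL1 was used to see which genes went with it in a library that the rule did not use. The 300 highest of 975 EL1 cells, the same share as in WTg, had a median score of 0.158, against 1.65 in the WTg members. Their lowest score was 0.0639, and 229 of the 975 EL1 cells held UMIs of only 1 score gene. Background was read only in the other library. There the 32 WTg leukocyte cells had a median score of 0, an upper quartile of 0.0377 and a highest score of 0.669. Free RNA of the score genes in EL1 was not measured. The 300 cells were also deeper, with a median of 37574 UMIs against 27915 in the other EL1 cells. The part of background and depth in the EL1 ratios was not tested. Of 9621 EL1 genes with at least 200 UMIs, 62 (0.644%) were at least 2-fold higher in these cells. Reg proteins had a median log2 ratio of 1.16 in EL1 and 0.88 in WTg, and Klk1, Reg3b and Zg16 had log2 ratios of 1.34, 1.58 and 1.39 in EL1. Prss1 had a log2 ratio of 5.26 in EL1 from a low level of 36.3 CPM over all EL1 cells.

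Some genes went different ways in the 2 libraries. Ctrl had a log2 ratio of 4.23 in EL1 and -2.48 in WTg, where it ranged from -4.23 to -0.35 with the number of members, and 2210010C04Rik 4.73 and -0.58. Neuroendocrine genes had a median of 0.09 in EL1 and -0.82 in WTg, and serpins 0.22 and -2.31. The median of all genes with at least 20 UMIs was -0.06 in EL1 and -0.30 in WTg. Trypsinogens had positive medians in both, 0.31 and 1.07, although their summed level in EL1 was 68799 CPM in the high-scoring cells and 86758 CPM in the others. With 1 library each, and scores of such different size, these differences were not tested.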

How the data were processed

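Single-cell suspensions of pancreatic tumours were profiled with 10x Genomics 3′ v3.1 chemistry, 1 EL1 and 1 WTg library. The authors deposited matrices of UMI counts per gene and barcode, made with Cell Ranger (6.0.2 in the file header) on GRCm38, with R 4.1 and Seurat 4.0.5 named in the submitters' processing notes. Whether intronic reads or strand were used is not given in the sources used here. A dense table of each library was not used, and the study's clusters were not used here. Filtered cells numbered 748 (WTg, 32642744 UMIs) and 975 (EL1, 37636516 UMIs). The members and gene lists were chosen with earlier results of these data known.

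UMIs were summed per group of cells. CPM has a 95% Poisson interval, the log2 ratio of CPM an exact conditional binomial interval and a share an exact binomial (Clopper-Pearson) interval, all covering counting error only. A count of 0 was set to 3 UMIs in a ratio. With 1 library per genotype no p-value was computed, since cells are not replicates. Called means a log2 ratio of at least 1 or at most -1 among genes with at least 200 UMIs in the cells compared, and list medians use genes with at least 20. The single genes named were those of the score, genes of the lists, the 12 highest and 12 lowest ratios (UMI in at least 10% of cells of the higher group, same sign with cells weighted equally and after subtracting the median of all genes) and the 10 genes most correlated with the score. Some genes that this rule names are not reported here. Clusters used scanpy 1.11.5 and leidenalg 0.10.2 (2000 variable genes, 30 components, 15 neighbours, resolution 1). Scrublet, at an expected 2%, called 4 of 905 WTg barcodes of at least 1000 UMIs doublets, 2 of them members, and cells so called were kept except in an alternative. The S and G2/M lists came from Seurat 5.3.0 in R 4.3.3. The ratio calculation was tested on simulated data.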

Additional observations from a re-analysis of the deposited data

Results flagged for a closer look

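The ER folding and unfolded protein response list lay on opposite sides of 0 in the libraries. Its median log2 ratio was -0.0694 for the 230 WTg members over the remaining WTg cells. For the 300 highest-scoring EL1 cells over the other EL1 cells it was 0.128. The median of all genes with at least 20 UMIs was -0.305 in WTg and -0.0613 in EL1, so the list lay above that median in both. The difference between the libraries was not tested, since each stands alone, and the WTg value changes sign with the scaling.

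Sycn was also counted outside the filtered cells. The 740 WTg barcodes that failed the filter held it at 298 CPM (276 to 322), close to the 342 CPM of the remaining filtered cells, and held Gm5771 at 249 CPM and Dmbt1 at 349 CPM. These barcodes hold 2229248 UMIs and enter no comparison.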

How the results depend on the processing

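No paired analysis was possible because each genotype has 1 library. With only the upper group of members by rank kept, the G2/M median was -0.90, the ER folding median -0.0154 and Hbb-bs reversed to -3.01. With the next group by rank added to the members, 43 genes were at least 2-fold higher, the digestive enzyme median was 0.50 and the G2/M median -0.15. Equal weight per cell gave a digestive enzyme median of 0.42. Scaling to UMIs outside the digestive genes gave 0.47, Mettl3 0.16 and an ER folding median of 0.0639, and a score from thinned cells gave an ER folding median of 0.0571. A floor of 20 UMIs per gene gave 85 higher and 1988 lower genes, and a floor of 1000 gave 17 and 107, where more and fewer genes were counted. Without leukocyte cells 283 genes were lower and Lyz2 was at 0.48. Without leukocyte, lymphoid, endothelial and fibroblast cells, an alternative chosen after seeing the data, 190 were lower and Lyz2 was at 0.44. The cluster richest in members held 124 of them at resolution 0.5 and 40 at resolution 2, against 78. The cause of the other shifts was not tested. Among values of single genes over all alternatives, 158 moved beyond their counting interval without a reversal, 3 reversed and 213 stayed within it. Depth limits genes with few UMIs, such as Amt and Igf2bp3.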
